A study of Mus musculus with 11 samples.

Results

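Embryoid bodies lacking connexin43 and connexin45 were compared with control embryoid bodies on day 6 of differentiation, which took 7 of the 11 arrays in the series. The arrays were chosen by their titles alone, 4 from deleted bodies and 3 from control bodies. Both lines are male C57BL/6 mouse embryonic stem cell lines. The control line carries the genes of both connexins flanked by recombination sites (flox). In the deleted line (del) exon 3 of both genes was removed, and that line also carries lacZ driven by the Cx43 promoter and eGFP driven by the Cx45 promoter. Stem cells of either line were grown on embryonic fibroblast feeders with leukemia inhibitory factor. For differentiation, drops of 2000 cells hung for 2 days in a medium listed without that factor, and the aggregates were then kept in bacteriological dishes until harvest. Each embryoid body array holds RNA pooled from about 300 bodies. The other 4 arrays, 2 of control and 2 of deleted stem cells, served as a shared estimate of spread and as a reference level.

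Connexins form gap junctions, channels through which neighbouring cells exchange ions and small molecules. Connexin43 (gene Gja1) and connexin45 (gene Gjc1) are both connexins of early mouse embryonic cells. Embryoid bodies are aggregates in which stem cells leave the pluripotent state. Their surface cells form primitive endoderm, an epithelium that lays down a basement membrane and later gives rise to visceral and parietal endoderm, and inner cells go on to epiblast-like and germ layer fates. The series title names primitive endoderm formation as the process of interest.

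Levels are given as the brightness of array probes. Probe identifiers were not matched to genes here, so the files pair no value with a gene name. The 2 connexin genes, endoderm, pluripotency and feeder cell markers were therefore not analysed, and the labels of genotype and tissue had no check of that kind. At most 2 probes per direction are named, by identifier. In pooled bodies, fewer cells of a type and less RNA per cell cannot be told apart. Replicates are described as biological, without a record of which culture each array came from, and each genotype is 1 described line. The p-values therefore measure the spread between these arrays, which may be technical, and the deletion cannot be told apart from any other difference between the lines.

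Mean deposited intensity was 381 to 503 units on control and 425 to 490 units on deleted arrays, and the share of probes detected was 40.1% to 42.5% and 41.0% to 43.0%. Array background, taken as the median of undetected probes, was 107.8 to 109.9 units in control and 102.5 to 107.2 units in deleted bodies, with no overlap. That gap of -4.25 units (deleted minus control) had an exact two-sided permutation p of 0.057 (0.171 after Benjamini-Hochberg adjustment over 3 array measures), where 0.029 is the smallest that 35 splits allow. Quantile normalization gives all arrays one distribution before any comparison. Replicates were more alike in deleted bodies, where pairs of arrays correlated across probes at r = 0.983 to 0.993, than in control bodies, at 0.969 to 0.979. The median SD of a probe was 0.11 on the log2 scale in deleted (n = 4) and 0.13 in control bodies (n = 3), and 58.4% of probes had the larger SD in control bodies.

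The comparison asked which transcripts differ between deleted and control bodies at day 6. Differences were widespread, modest for most probes and, after quantile normalization, about even in direction. Of 23268 probes tested, 22.5% passed an adjusted p of 0.05 (limma, Benjamini-Hochberg), 11% higher and 11.6% lower in deleted bodies. Probes past the threshold that were also at least 2-fold apart made up 4.83%, divided into 2.27% upward, or 529 probes, and 2.56% downward, or 595 probes. With median scaling these counts turned to 586 higher and 549 lower. The median change among higher probes was 0.64 and among lower probes 0.63 on the log2 scale, against a median size of 0.16 over all tested probes and a median standard error of 0.11. The smallest called change was 0.19. As a description of the same arrays, 32.8% of tested probes had no overlap between the 4 deleted and the 3 control arrays. Of all tested probes, 16.7% lay higher and 16.1% lower in deleted bodies without overlap. Among the probes without overlap, 2560 did not pass the threshold. Of the 5246 called probes 175 did overlap, but the same arrays made the calls, so that count is a description only.

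The 2 directions parted at the extremes. At a change of at least 1.5-fold, 1418 probes were higher and 1465 lower. At 4-fold the counts were 80 and 122, at 8-fold 4 and 32, and at 16-fold 0 and 15. Large losses thus outnumbered large gains although called probes as a whole were nearly balanced. That balance is in part set by quantile normalization, which gives all arrays 1 distribution. With median scaling 2380 called probes were higher and 1980 lower. Intensities near array background compress folds, so the same counts were taken among probes detected, at a detection p-value under 0.01, on all 7 arrays. There 3 probes were at least 8-fold higher and 19 lower, and 0 and 7 reached 16-fold. Correcting for background with limma's neqc gave 47 probes at least 8-fold higher and 148 lower, and 305 and 375 at 4-fold. The excess of large losses was again seen, but at 8-fold it was smaller in proportion than without the correction. The plot of level against change shows the longer lower tail.

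**Figure D1:**
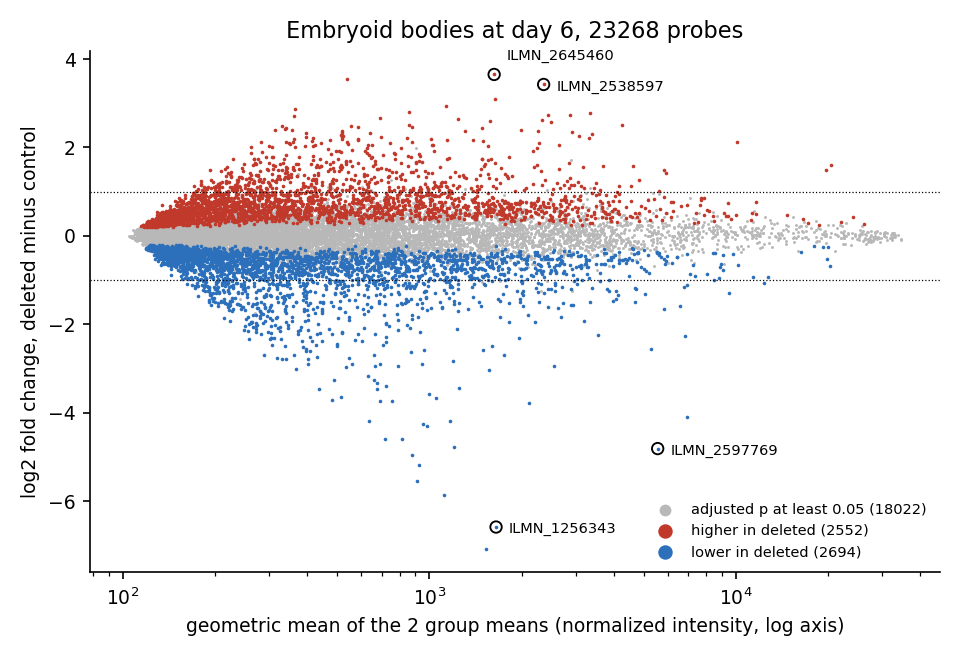
Each point is 1 of 23268 tested probes. The horizontal axis is the geometric mean of the control and deleted group means (normalized intensity, log axis), the vertical axis is the log2 fold change of deleted minus control bodies, dotted lines mark 2-fold, and circles mark the 4 named probes. The 15 probes past 16-fold all lie below zero, and the points form a funnel that narrows towards the dim left side. The part of array background in that shape was not tested.

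Probes are named only where they were detected in both groups. The rule took the 2 largest changes in each direction among called probes detected on all 7 embryoid body arrays without overlap, a group of 1800 higher and 1897 lower probes. ILMN_1256343 had the largest loss under this rule. Its normalized intensity was 18709, 14248 and 14941 units in control replicates 1 to 3 and 144, 255, 141 and 143 units in deleted replicates 1 to 4. All control arrays lay far above all deleted arrays, and among the latter replicate 2 stood apart. The mean was 15966 ± 2401 (SD, n = 3) against 171 ± 56.0 (SD, n = 4), a log2 fold change of -6.59 ± 0.21 (SE, limma adjusted p = 1.6e-07). All 4 stem cell arrays gave 2020 to 3139 units, so the level in deleted bodies was below that of undifferentiated cells of either line, and in control bodies above it. Because 141 to 144 units lie close to background, its 96.1-fold change is compressed by it, and with neqc the log2 fold change was -8.04.

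ILMN_2597769 was among the brightest probes of control bodies, ranking 42 by mean level among those tested. Control replicates 1 to 3 gave 28340, 30234 and 26342 units, and deleted replicates 1 to 4 gave 725, 1904, 987 and 751 units. The groups did not overlap, and deleted replicate 2 was again the highest of its group. The control mean was 28305 ± 1946 (SD, n = 3) and the deleted mean 1092 ± 554 units (SD, n = 4), a 28.1-fold fall with a log2 fold change of -4.81 ± 0.32 (SE, limma adjusted p = 8.3e-06). Stem cells stood between the groups, at 2427 and 2775 units in the control and 5549 and 3048 units in the deleted line. Deleted bodies were therefore below all 4 stem cell arrays for this probe also.

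Among probes that rose, ILMN_2645460 had the largest change. It gave 719, 500 and 227 units in control replicates 1 to 3 and 4464, 5186, 6051 and 6286 units in deleted replicates 1 to 4. Control replicate 3 was the lowest array and the control values were uneven, but no control array came near a deleted one. Group means were 482 ± 246 (SD, n = 3) for control and 5497 ± 835 units (SD, n = 4) for deleted bodies, a 12.6-fold rise with a log2 fold change of 3.65 ± 0.37 (SE, limma adjusted p = 0.00012). Stem cells ranged from 2174 to 4727 units, so deleted replicate 1 lay within the stem cell range, the other 3 deleted arrays above it and all control bodies below it.

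ILMN_2538597 showed the same order with a tighter spread. Control replicates 1 to 3 gave 918, 642 and 617 units, and deleted replicates 1 to 4 gave 7789, 7086, 7692 and 8137 units. Its 10.7-fold difference, 726 ± 167 (SD, n = 3) against 7676 ± 437 units (SD, n = 4), was a log2 fold change of 3.43 ± 0.13 (SE, limma adjusted p = 3.4e-07). Every deleted body array was above every stem cell array, the latter at 3974 to 4835 units, and every control body array was below. The 4 named probes did not differ between deleted and control stem cells past the threshold. Their log2 differences there were 0.34 ± 0.28 (SE) for ILMN_1256343, 0.66 ± 0.42 for ILMN_2597769, -0.29 ± 0.49 for ILMN_2645460 and -0.24 ± 0.17 for ILMN_2538597, with limma adjusted p of 0.73, 0.65, 0.89 and 0.69.

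**Figure D2:**
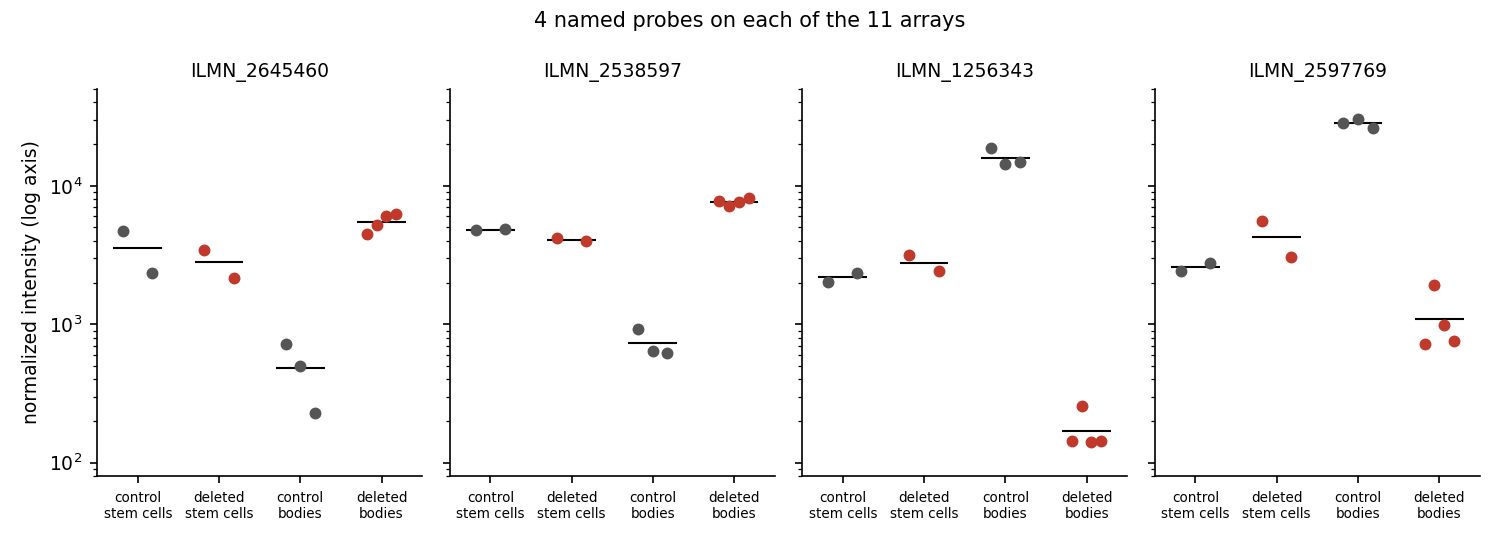
Points are single arrays and bars are group means of normalized intensity on a log axis, for 2 control stem cell, 2 deleted stem cell, 3 control body and 4 deleted body arrays (deleted line in red). In each panel the control and deleted bodies lie on opposite sides of the stem cell group means, and deleted replicate 2 is the highest deleted body array for both probes that fell.

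Calls were not spread evenly over brightness. The tested probes were divided into 4 classes of equal size by mean level in the 7 arrays. Of the dimmest class 3.58% passed the threshold, of the next 20.5%, of the third 33.0% and of the brightest 33.1%, against 22.5% over all. The dimmest class, with levels of 104.8 to 132.3 units, lies at array background, and none of its 208 calls reached 2-fold. Those dim calls leaned downward, 72 higher and 136 lower, or 65.4% lower, with a Clopper-Pearson 95% interval of 58.5% to 71.8% that treats probes as independent, which they are not. Their number and the size of the lean varied with the settings. Without 1 array, 22 to 61 were higher and the lower share was 61.6% to 82.3%. Without deleted replicate 2 it was 61.6%, with 61 higher and 98 lower. Without a control array it was 77.5% (replicate 1), 78.0% (replicate 2) and 82.3% (replicate 3). The share was 60.4% without a detection filter, 62.0% with array weights, 64.2% with embryoid bodies alone, 66.1% with median scaling and 67.1% with a stricter filter. Trended robust moderation gave 187 higher and 240 lower. In the brightest class, from 482 units upward, 987 were higher and 941 lower. Deleted arrays also had the lower background, as given above, and its part in the downward lean of dim probes was not tested. The mean that sorts the probes counts 4 deleted and 3 control arrays, so it lies nearer to the deleted level. That places probes lower in deleted bodies in dimmer classes, and its part in the lean was not tested either. With neqc, which subtracts background, the dimmest class held 149 higher and 247 lower calls. In the brightest class the balance depended on scaling: with median scaling in place of quantile normalization it was 900 higher and 585 lower. Sorted instead by level in the 4 stem cell arrays, whose levels do not enter the fold change, the dimmest class held 196 higher and 471 lower calls and the brightest 1073 higher and 871 lower. That dimmest class is largely another set of probes, sharing 51 higher and 117 lower calls with the class above, and it reaches 945 units in embryoid bodies.

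**Figure D3:**
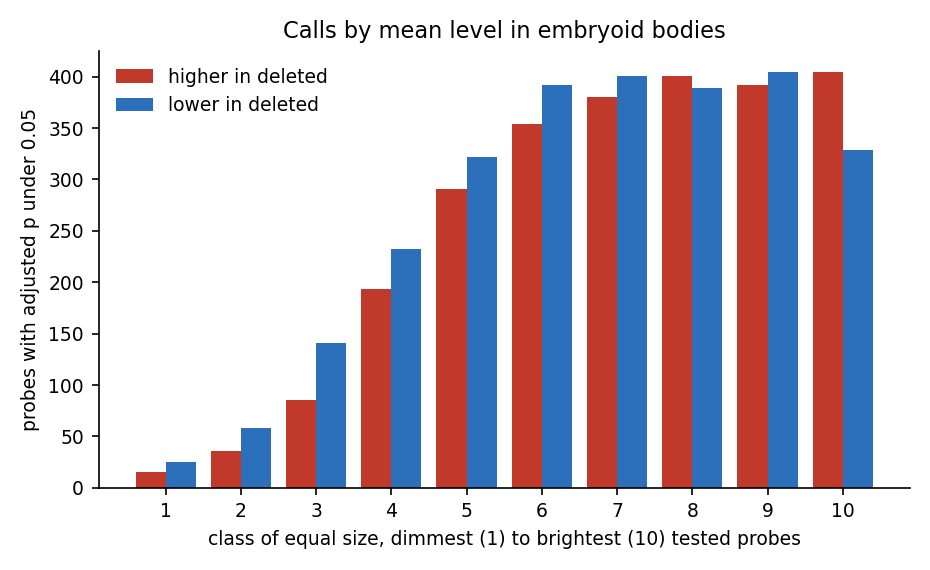
Bars count probes past an adjusted p of 0.05, higher (red) or lower (blue) in deleted bodies, in 10 classes of equal size from the dimmest to the brightest tested probes by mean level in embryoid bodies. Calls rise from 15 higher and 25 lower in the dimmest class to 405 and 329 in the brightest, and lower calls lead in the 7 dimmest classes and in class 9.

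Most probes at least 2-fold apart were detected on all 7 arrays. The 2-fold cut itself favours probes above background, as none of the 208 calls in the dimmest of 4 brightness classes reached it. The shares below, set against all tested probes, are therefore a description only. Of the 529 probes at least 2-fold higher, 436 (82.4%) were detected on all 7 arrays, 72 on all deleted and some control arrays, and 21 on all deleted arrays and no control array. Among the 595 at least 2-fold lower, 454 (76.3%) were detected on all 7, 71 on all control and some deleted arrays, and 70 on all control arrays and no deleted one. Over all 23268 tested probes, 56.4% were detected on all 7 arrays. There, 1249 were detected on all deleted and some control arrays, and 403 on all deleted arrays and no control array. Another 823 were detected on all control and some deleted arrays, and 339 on all control arrays and no deleted one. The other 7331 were not detected on all arrays of either group, which held for 0 of either 2-fold set. For the 122 probes at least 4-fold lower, the share detected on all 7 was 65.6%. Of these 122, 21 were undetected on every deleted array.

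The part of these sets in the total signal differed between the groups. By number, the lower set was 2.56% and the higher set 2.27% of tested probes. The 595 lower probes made up 5.29% to 5.68% of the summed normalized intensity of tested probes on control arrays and 1.54% to 1.72% on deleted arrays. The 529 higher probes made up 1.32% to 1.78% on control and 4.56% to 4.70% on deleted arrays. The embryoid body values chose the sets and are given as a description only. On the 4 stem cell arrays, which entered the choice through normalization, filter and shared spread but not through the fold change, the lower set held 1.92% to 2.52% and the higher set 3.93% to 4.47%. For both sets the stem cell share was nearer to that of deleted than of control bodies.

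Array by array, the difference was also seen in samples left out of the calls, although these samples stayed in the normalization over all 11 arrays. Each of the 7 arrays was left out in turn, probes at least 2-fold apart were called on the others, and the left-out array was placed between the means of control bodies (0%) and deleted bodies (100%). The median position of left-out deleted arrays was 89.8% to 99.2% on higher and 92.9% to 102.5% on lower probes. For control arrays it was -12.3% to 16.9% on higher and 5.70% to 7.23% on lower probes. The groups did not overlap on either set. A left-out deleted array was nearer to the other deleted arrays at 90.3% to 98.5% of higher and 97.3% to 100% of lower probes, and a control array nearer to the other controls at 90.2% to 94.4% and 86.0% to 96.2%.

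Within this separation 2 arrays leaned to one side. Deleted replicate 2 was the deleted array closest to control bodies, at 89.8% on higher and 92.9% on lower probes. It was the highest deleted array at 266 of the 595 lower probes (44.7%), compared with 30.9% of all tested probes, which matches its position in both named probes that fell. Control replicate 3 lay at -12.3% on higher probes, farther from deleted bodies than the other control arrays, which stood at 16.9% and 10.7%. It was the lowest control array at 351 of the 529 higher probes (66.4%), compared with 34.5% of all tested probes. On lower probes, at 7.23%, it did not stand apart from the other controls.

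**Figure D4:**
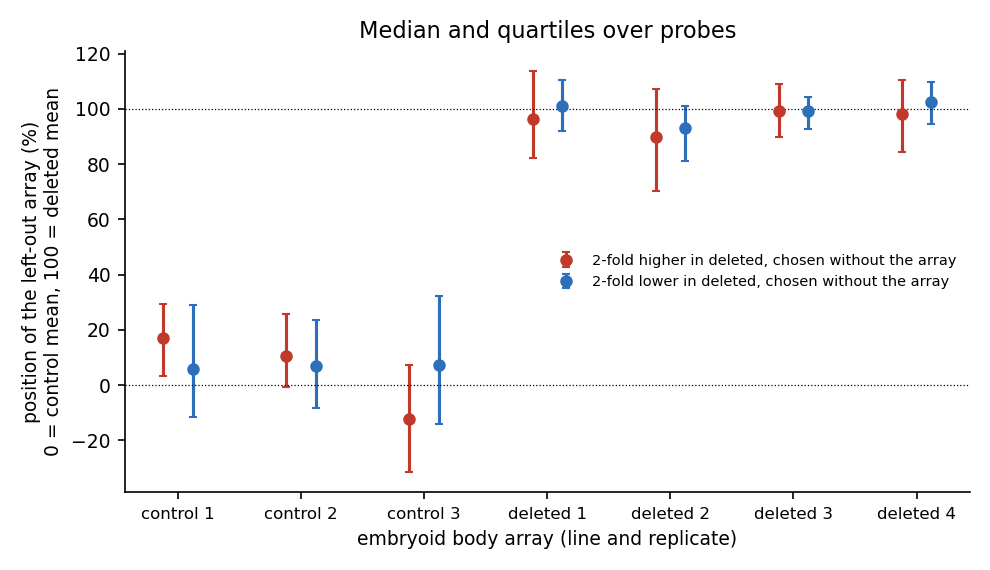
Points are the median position of each embryoid body array, and bars the quartiles over probes, on 479 to 581 higher (red) and 593 to 630 lower (blue) probes that were called without that array. At 0% an array equals the mean of the other control bodies and at 100% that of the other deleted bodies. All 4 deleted arrays have medians of at least 89.8% and all 3 control arrays of at most 16.9%.

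The 4 stem cell arrays give the levels in undifferentiated cultures. Those were grown on fibroblast feeders, and any share of feeder RNA in them was not analysed. For the 529 probes at least 2-fold higher in deleted bodies, the median level was 685 units in stem cells, 288 in control bodies and 848 in deleted bodies. Control bodies were below all 4 stem cell arrays at 419 of them (79.2%), compared with 31.5% of all tested probes. Deleted bodies were within the stem cell range at 139 (26.3%), above it at 293 (55.4%) and below it at 97 (18.3%), where all tested probes gave 41.0%, 31.0% and 28.0%. Their choice by the fold between the groups itself pushes deleted bodies up and control bodies down, so these shares are a description.

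For the 595 probes at least 2-fold lower, the median level was 292 units in stem cells, 777 in control bodies and 227 in deleted bodies. Control bodies lay above all 4 stem cell arrays at 521 (87.6%), compared with 32.4% of all tested probes. Deleted bodies were above the stem cell range at 144 of them (24.2%), within it at 180 (30.3%) and below it at 271 (45.5%). Both groups of body values chose this set too, which alone pushes control bodies up and deleted bodies down against stem cells, so these shares are likewise a description.

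**Figure D5:**
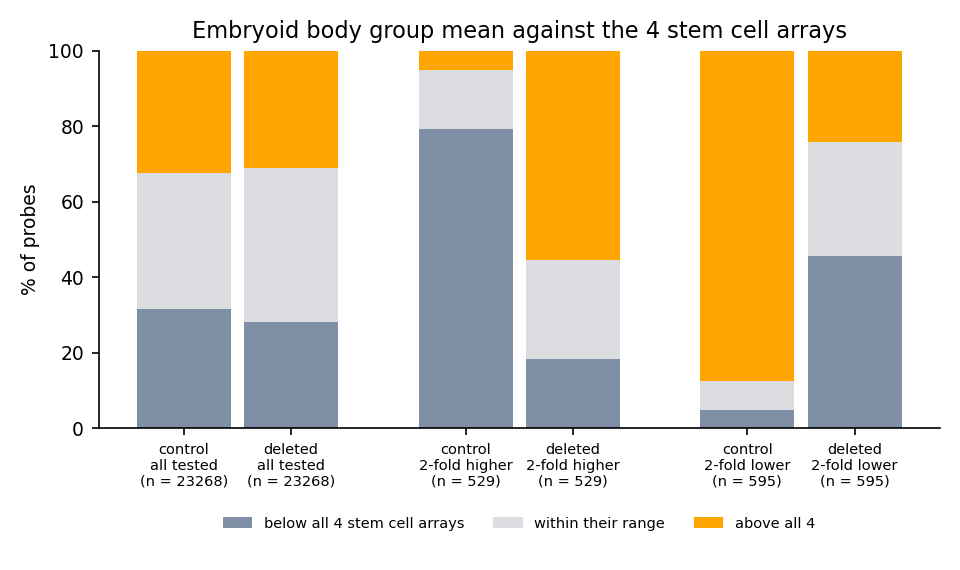
Stacked bars give the percentage of probes whose mean in control or deleted bodies was below, within or above the range of the 4 stem cell arrays, for all tested probes and for those at least 2-fold higher or lower in deleted bodies. Control bodies are below the stem cell range at 79.2% of higher probes and above it at 87.6% of lower probes, and the deleted bodies are divided among all 3 classes.

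The difference in embryoid bodies was not seen in the same direction in stem cells of the 2 lines, whose fold changes rest on other arrays. With limma, 0 of the 5246 called probes passed the threshold in stem cells. At an unadjusted p under 0.05 there were 577 of them, with trended robust moderation 434 and with array weights 465, and neither of these fits gave an adjusted call. As shares of the called probes these were 11%, 8.27% and 8.86%, near the 8.99%, 9.21% and 7.17% of all tested probes. With 2 arrays a group, this does not show that the lines were alike as stem cells. The median stem cell difference was -0.08 on the log2 scale for probes higher in deleted bodies and 0.04 for lower ones, against -0.01 over all tested probes. Of the 2552 higher probes, 34.8% were also higher in deleted stem cells, and of the 2694 lower probes 58.6% were, compared with 46.6% of all tested probes. Both shares thus lay on the side opposite to the difference in bodies. Each of the 4 pairings of 1 deleted with 1 control stem cell array lay on the same sides. In them 35.4% to 42.6% of higher probes and 54.0% to 59.9% of lower probes were positive, where all tested probes gave 46.7% to 49.7%. The pairings reuse the same 2 arrays a group and are not independent of each other. Probes are not independent either, so the shares and medians in stem cells are a description only. On higher probes the medians were -0.13 and -0.10 with deleted stem cell replicate 1 and -0.05 and -0.03 with replicate 2. On lower probes they were alike, at 0.06 and 0.02 with replicate 1 and 0.05 and 0.02 with replicate 2. These differences were small beside those in bodies, where the median change was 0.64 and -0.63.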

How the data were processed

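Total RNA of 11 samples was hybridized to Illumina MouseWG-6 arrays. The deposited values are raw intensities of 45281 probes, exported by the authors from GenomeStudio 2011.1 (Gene Expression module 1.9.0), per the labels. For every probe and array the authors also deposited a detection p-value, its rank against negative control beads. No source used here says whether background was subtracted, and the lowest intensity is 85.9. Array number limits the precision.

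Intensities were quantile normalized over 11 arrays and log2 transformed without an offset. A probe was kept if its detection p-value was below 0.05 on 2 or more arrays. Means of 4 groups were fitted with limma 3.58.1 in R 4.3.3, with Benjamini-Hochberg adjustment over 23268 probes, and the fit was tested on simulated data. Alternatives were median scaling, neqc (offset 16), other filters, embryoid bodies alone, a replicate block, trended robust moderation, array weights and each array left out. No 2 arrays held identical values. Up to 2 probes per direction were named, by the rule given with them. The comparison, naming rule and sets were chosen with earlier results of these data known. Placing left-out arrays was added after seeing the data, with normalization over all 11 arrays kept.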

Additional observations from a re-analysis of the deposited data

Results flagged for a closer look

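In deleted embryoid bodies, ILMN_1256343 had 1 array far from the others: the gap between replicate 2, at 255 units, and the next array, at 144 units, was 0.974 of the group's range. Of 11 measures examined in the 4 deleted arrays this was the 1 so marked, where chance marks about 1 in 20. The genotype difference of all 4 named probes differed between embryoid bodies and stem cells by limma's interaction test. The difference in bodies minus that in stem cells was 3.94 ± 0.62 (SE, log2, limma adjusted p = 0.0041) for ILMN_2645460 and 3.66 ± 0.21 (adjusted p = 3.0e-05) for ILMN_2538597. It was -6.93 ± 0.35 (adjusted p = 1.5e-05) for ILMN_1256343 and -5.48 ± 0.52 (adjusted p = 0.00032) for ILMN_2597769. These probes were chosen for their difference in bodies, so the interaction is not independent of that choice.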

How the results depend on the processing

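The count of called probes, 5246 as reported, stayed within 1.5 times under each alternative except the replicate block fitted to 6 embryoid body arrays. That fit gave 3474 calls, 1766 of them lower, of which 1613 were among the 2694 reported as lower. The same 6 arrays without the block, an alternative added after seeing the data, gave 4072, and the block on all 11 arrays gave 4126. Same-numbered arrays deviated together at r = 0.08, -0.01 and 0.19, and none of the 3 control arrays correlated best with its own number, so the numbers were not taken to pair the samples. Under neqc, which subtracts background, the log2 change of ILMN_1256343 was -8.04, and the probes at least 2-fold apart rose to 1462 higher and 1481 lower, and 529 and 594 of the reported ones were among them. Median scaling turned the balance of calls to 2380 higher and 1980 lower, and at 2-fold to 586 and 549. Leaving out 1 array gave 4064 to 4831 calls, 1960 to 2335 higher and 2104 to 2496 lower, with 476 to 577 at least 2-fold higher and 587 to 626 lower. Log2 changes then ranged from -6.79 to -6.49 for ILMN_1256343, -5.09 to -4.66 for ILMN_2597769, 3.18 to 4.02 for ILMN_2645460 and 3.31 to 3.61 for ILMN_2538597. The difference in mean intensity between lines, 5.53 units, ranged from -30.7 to 30.4, being -30.7 without control replicate 1 and -4.67 without deleted replicate 1. That in the share detected ranged from 0.284 to 1.51 points and that in background from -5.07 to -3.52 units, in designs too small to reach 0.05. Calls in the dimmest of 4 brightness classes depended most on the settings: without control replicate 3 the higher ones fell to 22. The lower share ran from 56.2% under trended robust moderation, with 187 higher and 240 lower calls, to 100% under the 6-array block. That 100% rests on few calls, 0 higher and 19 lower.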
